A study of Mus musculus with 27 samples.

Results

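The genes described here are the Wnt ligands, the Frizzled receptors and 2 groups of secreted Wnt antagonists, the Sfrp and Dkk proteins. They were chosen by symbol alone, as every Wnt, Fzd, Sfrp1 to Sfrp5 or Dkk1 to Dkk4 entry in the RNA-seq tables of NMuMG, a normal mouse mammary epithelial line driven into epithelial-to-mesenchymal transition (EMT) by TGF-β. The rule gave 37 of 24892 gene symbols, namely 19 Wnt ligands, 10 Frizzled receptors, 4 Sfrp genes (Sfrp1, Sfrp2, Sfrp4 and Sfrp5) and 4 Dkk genes, and all 37 were in both tables.

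Wnt proteins are secreted lipid-modified ligands that bind Frizzled receptors together with the co-receptors Lrp5 or Lrp6, or with receptors such as Ror1 and Ryk. In the canonical branch this binding protects β-catenin from degradation and lets it act with Tcf and Lef factors in the nucleus, and other branches act on the cytoskeleton and on calcium. Sfrp proteins bind Wnt ligands outside the cell, and Dkk proteins block the Lrp co-receptors. In the mammary gland several Wnt ligands are known for their part in ductal branching and stem cell maintenance, and Wnt1 is a classical mammary oncogene in mice.

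RNA was sequenced in parental NMuMG cells before TGF-β and after 8 and 24 h with it, and in cells infected with lentivirus carrying a control shRNA or an shRNA against lamin B1 (KD cells), selected with puromycin and given the same 0, 8 and 24 h. Every one of the 9 groups held 2 libraries, described as 2 biological replicates of this 1 cell line, and the labels give TGF-β as 1 to 5 ng/ml for all treated cells. All cells grew in serum with insulin, so untreated means without added TGF-β. Lamin B1 ChIP-seq and ATAC-seq of parental cells had a single library at each time, and a ChIP library joined parallel immunoprecipitations. Values are FPKM, fragment counts scaled to transcript length and library size, which can be compared between genes within a library. The parental and shRNA tables were processed separately, so levels in one are set beside the other without a test.

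Lmnb1, the knocked-down gene, was at 9.01 and 9.27 FPKM in the untreated KD libraries against 29.2 and 36.5 FPKM in the untreated control libraries, and its highest KD value at 24 h (7.52 FPKM) lay under the lowest control value there (17.9 FPKM). Fn1, a fibronectin gene that answers TGF-β in most epithelial cells, rose in all 3 kinds of cell. Of the 5 epithelial markers, Cdh1, Krt8, Krt18 and Krt19 were abundant before treatment, whereas Epcam was low throughout (0.171 to 1.17 FPKM parental, 0.202 to 3.15 FPKM shRNA). The blood markers Ptprc and Cd3e, the adipocyte marker Adipoq and the muscle marker Myh1 stayed under 0.05 FPKM in all 18 libraries, whereas Cd68, a macrophage marker that was on the blood list, ran from 0.972 to 1.93 FPKM and the muscle actin gene Acta1 from 0.308 to 12.2 FPKM, highest in the shRNA libraries at 24 h (7.03 FPKM or more). The adipocyte marker Fabp4 was at 4.61 to 5.87 FPKM in the parental libraries and at 0 to 0.203 FPKM in the shRNA libraries, and the 3 endothelial markers summed to 0.988 to 1.51 FPKM against 0.0132 to 0.605 FPKM.

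For 4 members whose mRNA moved with TGF-β and whose start sites had peaks in the lists (described further on), the promoter is shown here, 300 bases read 5′ to 3′ on the gene's strand, from 250 bases before the start site to 50 bases after its upstream edge, from RefSeq on GRCm38.p6. The table held promoters for 25 of the 37 members. Capitals mark CAGAC (the Smad box) or CAGGTG (the E-box that Snail and Zeb factors read), or their reverse complements, searched on both strands. The windows are chr11:59306680-59306979 on the plus strand for Wnt9a, chr15:98789607-98789906 on the plus strand for Wnt1, chr4:137277385-137277684 on the plus strand for Wnt4 and chr1:64737701-64738000 on the minus strand for Fzd5.
Wnt9a: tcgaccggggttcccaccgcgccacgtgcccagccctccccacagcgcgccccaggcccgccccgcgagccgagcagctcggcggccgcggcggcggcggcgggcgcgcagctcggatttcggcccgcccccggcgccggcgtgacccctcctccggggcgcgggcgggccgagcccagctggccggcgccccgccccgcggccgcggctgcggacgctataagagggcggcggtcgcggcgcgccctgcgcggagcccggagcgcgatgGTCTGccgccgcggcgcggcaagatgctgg
Wnt1: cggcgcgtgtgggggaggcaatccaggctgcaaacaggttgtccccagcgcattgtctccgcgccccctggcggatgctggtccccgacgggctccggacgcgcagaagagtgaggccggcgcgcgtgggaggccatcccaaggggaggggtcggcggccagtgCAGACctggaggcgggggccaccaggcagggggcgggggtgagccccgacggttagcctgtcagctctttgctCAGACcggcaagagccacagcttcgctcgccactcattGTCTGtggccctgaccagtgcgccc
Wnt4: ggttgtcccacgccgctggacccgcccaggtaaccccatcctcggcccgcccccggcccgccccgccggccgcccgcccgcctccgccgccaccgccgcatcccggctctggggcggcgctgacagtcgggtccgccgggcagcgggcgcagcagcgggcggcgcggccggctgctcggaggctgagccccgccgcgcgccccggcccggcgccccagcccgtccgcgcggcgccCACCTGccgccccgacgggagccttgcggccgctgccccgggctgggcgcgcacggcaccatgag
Fzd5: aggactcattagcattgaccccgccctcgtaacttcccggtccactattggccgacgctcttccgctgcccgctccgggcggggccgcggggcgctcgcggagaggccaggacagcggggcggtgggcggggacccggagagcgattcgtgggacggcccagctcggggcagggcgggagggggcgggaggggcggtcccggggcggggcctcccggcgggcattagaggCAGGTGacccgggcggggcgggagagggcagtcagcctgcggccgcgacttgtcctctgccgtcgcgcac

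The 2 ligand promoters whose mRNA rose, Wnt9a and Wnt1, held 1 and 3 matches to CAGAC, and the 2 promoters whose mRNA fell, Wnt4 and Fzd5, held none of those and 1 match each to CAGGTG. Such short motifs are common, and a link between motif and direction of change was not tested. CAGAC occurred in 49.6% of 32851 RefSeq promoters of this length and in 14 of the 28 promoters of these 25 members, and CAGGTG in 20.2% of all and in 9 of 28. TCAAAG, the core of the TCF/LEF site, was in 16.0% of all promoters and in 4 of 28, and TGANTCA, the AP-1 motif, in 7.81% and in 1 of 28; neither was in the 4 printed. All 4 sequences are rich in G and C, from 70.7% (Wnt1) to 84.3% (Wnt4).

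Most of the family was at or near 0 in these cells. Genes were tested where they reached 1 FPKM in at least 2 libraries of a table, which 11 members did in the parental table (Wnt2, Wnt4, Wnt5a, Wnt7b, Wnt9a, Fzd1, Fzd2, Fzd5, Fzd6, Fzd7 and Fzd8) and 14 in the shRNA table (Wnt1, Wnt2, Wnt4, Wnt5a, Wnt7a, Wnt7b, Wnt9a, Wnt11, Fzd1, Fzd2, Fzd4, Fzd5, Fzd6 and Fzd7). None of the 8 antagonists passed in either table. Of the 26 parental members under the filter, 19 never exceeded 0.2 FPKM, as did 20 of 23 in the shRNA table. Wnt8a and Wnt8b were listed at 0 in all 18 libraries, and Wnt3, Wnt3a and Dkk4 in all parental ones, while 12 housekeeping genes were never at 0.

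The secreted antagonists were near the bottom of the scale. The highest Sfrp value was 0.115 FPKM (Sfrp2) and the highest Dkk value 0.175 FPKM (Dkk3) in the parental libraries, and the highest in the shRNA libraries were 0.0470 FPKM (Sfrp5) and 0.102 FPKM (Dkk1). Sfrp1, Sfrp2 and Dkk3 ran from 0.0535 to 0.0899, from 0.0807 to 0.115 and from 0.0645 to 0.175 FPKM in parental cells, whereas in the shRNA table Sfrp1 reached 0.00724, Sfrp2 0.0345 and Dkk3 0.00562 FPKM at most. These traces were higher in the same table as Fabp4 and the endothelial markers, and the part of other cells in them was not tested. Dkk1, the best studied Lrp blocker, was listed at 0 in both untreated control libraries and stood at 0.0402 and 0.102 FPKM in the 8 h KD libraries. No antagonist reached the level set for testing a change.

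Wnt7b made up most of the ligand mRNA. This ligand acts through β-catenin in lung and kidney epithelium. In parental cells it was at 42.4 and 42.3 FPKM untreated, 86.0 and 76.4 FPKM at 8 h, then 82.2 and 74.3 FPKM at 24 h. Both treated groups lay above the untreated libraries, with a level 1.92 times as high at 8 h and 1.85 times at 24 h. On the log2(FPKM + 1) scale used for all tests the differences were 0.92 ± 0.07 (SE) and 0.87 ± 0.07 (n = 2 per group, limma adjusted p = 8.7e-05 and 3.2e-05). Control cells went from 32.0 and 35 FPKM to 78.1 and 77.3 FPKM at 8 h, then 81.0 and 82.0 FPKM at 24 h, and KD cells from 32.0 and 32.5 to 90.4 and 87.3 and then 81.4 and 84.4 FPKM. In all 3 kinds of cell the level at 8 h was already at or near that of 24 h. Wnt7b was 88.9 to 89.7% of the summed ligand FPKM in untreated parental cells and 81.6 to 82.0% at 24 h.

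Wnt9a, a ligand best known from joint and blood stem cell development, showed the largest log2 differences of the tested members at 24 h. It was at 0.218 and 0.142 FPKM in untreated parental cells, 1.14 and 0.651 FPKM at 8 h, then 12.1 and 9.94 FPKM at 24 h. The 3 groups did not overlap, and most of the rise came between 8 and 24 h (log2 difference 2.67 ± 0.14, limma adjusted p = 1.7e-05). Control cells started alike, at 0.235 and 0.222 FPKM, and reached 4.76 and 5.08 FPKM at 8 h, then 25.5 and 28.4 FPKM at 24 h. KD cells held 0.474 and 0.574 FPKM untreated, 11.8 and 11.1 FPKM at 8 h, then 37.7 and 39.5 FPKM at 24 h, above the control libraries at each time. Against their own untreated mean the 24 h means were 61.1 times as high in parental, 118 times in control and 73.8 times in KD cells, all from a base under 0.6 FPKM. By 24 h Wnt9a made up 11 to 12% of ligand FPKM in parental, 21.8 to 23.6% in control and 29.7 to 29.8% in KD cells.

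**Figure D1:**
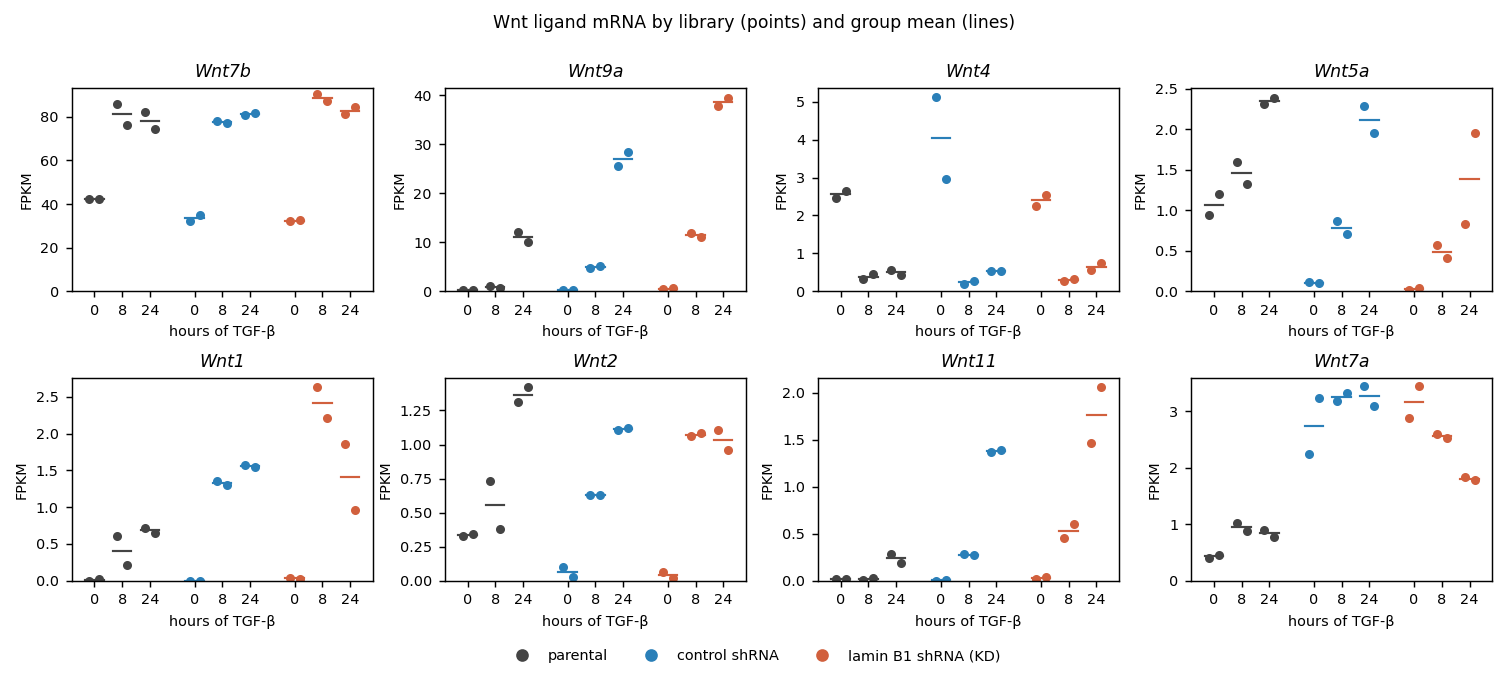
FPKM of 8 Wnt ligands (vertical axes from 0, each panel on its own scale) against hours of TGF-β for parental, control shRNA and lamin B1 shRNA cells; points are libraries and lines the means of 2. Wnt7b and Wnt9a rise and Wnt4 falls in all 3 kinds of cell, and Wnt9a is highest in the 24 h KD libraries (37.7 and 39.5 FPKM).

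Wnt4 fell in all 3 kinds of cell. It is known for progesterone-driven side branching of the mammary duct. Untreated parental libraries held 2.47 and 2.64 FPKM, against 0.317 and 0.440 FPKM at 8 h, then 0.555 and 0.438 FPKM at 24 h. Control libraries held 5.12 and 2.97 FPKM untreated, 0.185 and 0.277 FPKM at 8 h, then 0.522 and 0.524 FPKM at 24 h. In KD cells the values were 2.26 and 2.54, then 0.266 and 0.331, then 0.563 and 0.733 FPKM. Untreated libraries were above all treated ones in each kind of cell, and the log2 differences at 8 h were -1.37 ± 0.08, -2.0 ± 0.17 and -1.39 ± 0.17 (limma adjusted p = 4.6e-05, 1.1e-05 and 8.4e-05). The 2 untreated control libraries differed from each other more than any other pair of this gene, and the difference of untreated KD from control cells did not pass the test (-0.54 ± 0.17, adjusted p = 0.054). Wnt10a, another ligand, was under the filter and went from 0.338 and 0.354 FPKM in untreated parental cells to means of 0.0958 (8 h) and 0.110 FPKM (24 h), and with no filter it was called lower at both times (-0.30 and -0.28, adjusted p = 0.0049 and 0.0030).

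Wnt1, the mammary oncogene, rose from a base near 0. It was listed at 0 in both untreated control libraries and stood at 1.36 and 1.30 FPKM at 8 h, then 1.58 and 1.55 FPKM at 24 h. In KD cells it was at 0.0340 and 0.0294 FPKM, then 2.63 and 2.21 FPKM, then 1.86 and 0.967 FPKM, so that the 8 h KD libraries were the highest and the 24 h ones spread widely. In parental cells it went from 0 and 0.0273 to 0.604 and 0.214 and to 0.718 and 0.653 FPKM, under the filter. With no filter Wnt1 was called higher there at 24 h (0.73, limma adjusted p = 0.0085).

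Wnt11 and Wnt5a, ligands known mostly for β-catenin-independent signalling, rose later. Wnt11 was at 0 and 0.0130 FPKM in untreated control cells, 0.285 and 0.272 FPKM at 8 h, then 1.37 and 1.40 FPKM at 24 h, and KD cells reached 1.46 and 2.06 FPKM. In parental cells Wnt11 was lower, from 0.0123 to 0.0336 FPKM up to 8 h and at 0.286 and 0.190 FPKM at 24 h, and with no filter it was called higher at 24 h (0.27, limma adjusted p = 0.0038). Wnt5a was at 0.111 and 0.0979 FPKM in untreated control cells, 0.861 and 0.708 FPKM at 8 h, then 2.28 and 1.96 FPKM at 24 h. Parental cells began higher, at 0.940 and 1.2 FPKM, and ended at 2.31 and 2.39 FPKM, near the control libraries of that time. The KD libraries held 0.0178 and 0.0407, then 0.564 and 0.410, then 0.826 and 1.95 FPKM, and the last 2 lay far apart.

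Wnt2, a ligand of the mammary stroma and of lung development, went from 0.326 and 0.340 FPKM in untreated parental cells to 1.31 and 1.42 FPKM at 24 h (log2 difference 0.83 ± 0.11, limma adjusted p = 5.1e-04). Control cells went from 0.103 and 0.0247 FPKM to 0.631 and 0.632 FPKM at 8 h, then 1.11 and 1.12 FPKM at 24 h. KD cells were already at 1.06 and 1.08 FPKM at 8 h and at 1.11 and 0.963 FPKM at 24 h. Wnt7a, a close relative of Wnt7b, took the other course in KD cells. It was at 2.24 and 3.24 FPKM in untreated control cells and at 3.44 and 3.08 FPKM at 24 h, but fell in KD cells from 2.87 and 3.44 FPKM to 1.83 and 1.78 FPKM (-0.56 ± 0.12, adjusted p = 0.0022). Parental libraries held 0.408 to 1.02 FPKM of Wnt7a, under the filter. With no filter it was called higher there at 8 and 24 h (0.44 and 0.36, limma adjusted p = 0.0054 and 0.0055).

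In parental cells 3 tested members (Fzd8, Wnt2 and Wnt9a) and 5 in the shRNA table (Wnt1, Wnt2, Wnt5a, Wnt9a and Wnt11) reached 1 FPKM only in treated libraries. Their passing the filter already required a high treated level. The tests of their rise given above are therefore a description of these genes and no support for a rise. Wnt4 in both tables and Fzd4 in the shRNA table reached 1 FPKM only in untreated libraries, for Fzd4 the 2 KD ones. The tests of their fall are also a description and no support for a fall. Likewise the counts and medians of members that follow are a description of the family and support nothing about it.

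Among the receptors Fzd2, which carries both canonical and Wnt5a signals, changed most. It rose in steps, from 4.88 and 4.49 FPKM in untreated parental cells to 11.4 and 10.8 FPKM at 8 h, then 20.3 and 19.9 FPKM at 24 h (log2 difference at 24 h 1.89 ± 0.06, limma adjusted p = 6.7e-07). Control cells held 4.41 and 3.51, then 11.4 and 11.7, then 19.4 and 19.3 FPKM, and KD cells 2.94 and 3.04, then 11 and 11.4, then 19.5 and 19.8 FPKM. The 24 h libraries of the 3 kinds of cell lay within 19.3 to 20.3 FPKM. KD cells began lower than control cells (-0.31 ± 0.08, limma adjusted p = 0.024), a call lost without either untreated KD library (-0.29 and -0.32, adjusted p = 0.13 and 0.095). The 95% interval of the difference at 24 h was -0.15 to 0.19.

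Fzd6, a receptor known from planar polarity of skin and hair, was the most abundant Frizzled of untreated cells in the parental and control libraries. It rose from 7.30 and 7.94 FPKM to 9.79 and 9.45 FPKM at 8 h, then 16.8 and 16.6 FPKM at 24 h in parental cells, and from 12.1 and 11.2 to 15.5 and 14.3 and to 19.7 and 20.2 FPKM in control cells. KD cells started at 7.81 and 8.06 FPKM, under the control libraries (-0.50 ± 0.06, limma adjusted p = 9.7e-04), and ended at 17.4 and 18.9 FPKM. Fzd1 rose as well, from 4.50 and 4.22 to 7.33 and 7.35 FPKM in parental cells, from 2.80 and 2.64 to 5.84 and 5.19 FPKM in control cells and from 3.19 and 3.09 to 6.41 and 7.05 FPKM in KD cells.

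Fzd5, a receptor of intestinal Paneth cells and the yolk sac, moved the other way. Parental libraries held 6.52 and 6.85 FPKM untreated, 3.29 and 4.30 FPKM at 8 h, then 4.26 and 4.47 FPKM at 24 h, and control libraries 6.42 and 6.94, then 3.50 and 3.44, then 4.87 and 4.47 FPKM. In KD cells Fzd5 began at 12.3 and 12.6 FPKM, 1.86 times the control mean, fell to 5.86 and 5.62 FPKM and ended at 6.69 and 6.61 FPKM. The KD libraries were above the control libraries at each time, by 0.81 ± 0.06, 0.59 ± 0.06 and 0.43 ± 0.06 on the log2 scale (limma adjusted p = 5.5e-05, 1.7e-04 and 0.0011).

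Fzd7, a receptor linked to mammary and intestinal stem cells, dipped at 8 h and came back. It was at 4.05 and 4.50, then 3.41 and 3.44, then 6.04 and 6.36 FPKM in parental cells (limma adjusted p = 0.015 for the fall and 6.3e-04 for the 24 h rise), at 4.53 and 3.86, then 2.91 and 2.74, then 4.46 and 4.87 FPKM in control cells, and at 4.82 and 4.69, then 2.92 and 2.94, then 5.35 and 5.94 FPKM in KD cells. Without the second untreated parental library the parental fall was -0.19 (adjusted p = 0.078). Fzd8 rose in parental cells between 8 h (0.588 and 0.608 FPKM) and 24 h (1.14 and 1.09 FPKM). In the shRNA table it was under the filter. With no filter it was called higher at 24 h in control and KD cells (0.32 and 0.61, limma adjusted p = 0.021 and 8.0e-04). Fzd4, the Norrin receptor, lay between 0.595 and 1.09 FPKM in parental and 0.546 and 1.23 FPKM in shRNA libraries, and fell in KD cells from 1.23 and 1.18 FPKM to 0.546 and 0.739 FPKM. Fzd3 and Fzd9 did not exceed 0.389 and 0.466 FPKM in any library, and Fzd10 did not exceed 0.0106 FPKM. With no filter Fzd3 was called higher at 24 h in parental, control and KD cells (0.14, 0.23 and 0.21, limma adjusted p = 0.0029, 1.8e-04 and 2.9e-04).

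**Figure D2:**
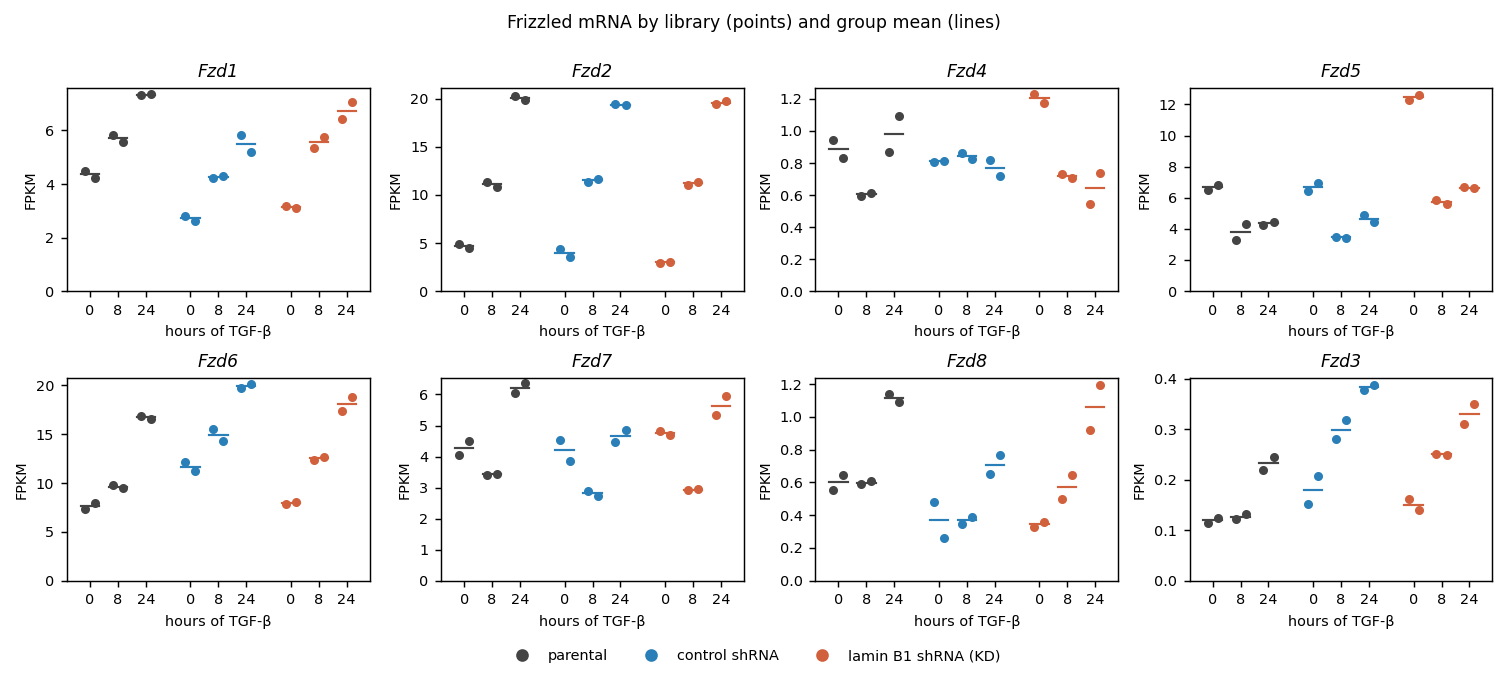
FPKM of 8 Frizzled receptors (vertical axes from 0, each panel on its own scale) against hours of TGF-β; points are libraries and lines the means of 2 per group. Fzd2 climbs to 19.3 to 20.3 FPKM at 24 h in every kind of cell, Fzd7 dips at 8 h, and Fzd5 is highest in untreated KD cells.

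With these changes the makeup of the receptor pool shifted. Fzd2 went from 15.1 to 16.8% of the summed Frizzled FPKM in untreated parental cells to 34.8 to 35.4% at 24 h, and Fzd5 from 22.4 to 23.0% to 7.44 to 7.80%. In untreated KD cells Fzd5 was the leading receptor, with 37.4 to 37.8%, where control cells had 20.1 to 23.4%, and Fzd6 made up 23.7 to 24.2% against 37.8 to 38.0%. The summed Frizzled level rose from 29.4 ± 0.502 to 57.2 ± 0.0480 FPKM (mean ± SD, n = 2) in parental cells over 24 h, from 30.8 ± 1.64 to 56.4 ± 0.329 FPKM in control cells and from 33.1 ± 0.267 to 59.0 ± 2.5 FPKM in KD cells. The summed ligand level rose from 47.4 ± 0.295 to 95.6 ± 7.16 FPKM, from 40.9 ± 1.24 to 119 ± 2.23 FPKM and from 38.7 ± 0.912 to 130 ± 3.92 FPKM. The FPKM of all genes also summed to different totals in the shRNA libraries, from 600578 (an untreated KD library) to 910348 (a 24 h KD library). The family sums were not scaled to these totals.

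**Figure D3:**
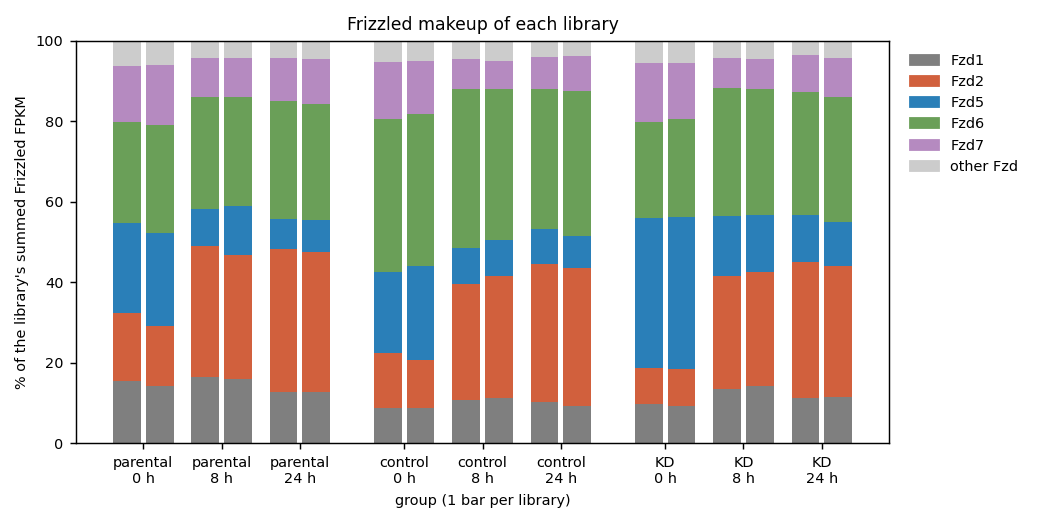
Share of each Frizzled in the summed Frizzled FPKM (vertical axis, percent), 1 bar per library, for parental, control and KD cells at 0, 8 and 24 h. Fzd2 grows to 34.8 to 35.4% in parental libraries at 24 h, and Fzd5 takes 37.4 to 37.8% in untreated KD cells.

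The calls among tested members are given here beside those among all genes. In parental cells at 8 h, 5 of 11 tested members were higher and 3 lower by the limma test (adjusted p under 0.05 over all 11309 genes), where 22.4% of all genes were higher and 32.1% lower. At 24 h, 9 were higher and 2 lower (33.4% and 37.1% of all genes), and from 8 to 24 h, 8 were higher and none lower (27.7% and 24.0%). In control cells 9 of 14 were higher and 3 lower at 8 h (19.4% and 44.9% of 11450 genes) and 9 and 2 at 24 h (25.5% and 45.1%). In KD cells 9 were higher and 4 lower at 8 h (23.0% and 44.8%), and 10 and 4 at 24 h (28.6% and 43.3%). The median log2 difference of tested members at 24 h was 0.70 in parental, 0.90 in control and 1.03 in KD cells, and that of all genes -0.02, -0.13 and -0.10. The member medians include the 3 parental and 5 shRNA members that reached 1 FPKM only in treated libraries. They also include Wnt4, and in the shRNA table Fzd4, which reached it only in untreated ones. These medians are a description only. The members lower at 24 h were Wnt4 and Fzd5 in parental and control cells, joined by Wnt7a and Fzd4 in KD cells.

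Fewer calls were made between KD and control cells than over TGF-β treatment, among members as among all genes. Untreated KD cells had 3 members above control cells (Fzd4, Fzd5 and Wnt9a) and 2 below (Fzd2 and Fzd6) of 14, where 10.6% and 9.09% of all genes were called. Fzd4 passed the filter only through the 2 untreated KD libraries, so its call is a description and no support for a difference. At 8 h, 6 were above (Fzd1, Fzd5, Wnt1, Wnt2, Wnt7b and Wnt9a) and Fzd6 below (19.3% and 16.5% of all genes). At 24 h, 3 were above (Fzd1, Fzd5 and Wnt9a) and Wnt7a below (16.8% and 11.5%). Wnt9a and Fzd5 were above control at all 3 times. The Wnt9a difference was 0.31 ± 0.07 untreated, 1.07 ± 0.07 at 8 h and 0.50 ± 0.07 at 24 h (limma adjusted p = 0.014, 3.1e-05 and 0.0012), and the untreated call was lost without the second untreated KD library (0.26, adjusted p = 0.10). Without the first 8 h control library the 8 h calls of Fzd1 (0.30, adjusted p = 0.051), Fzd6 (-0.18, 0.11), Wnt1 (0.57, 0.071) and Wnt7b (0.20, 0.054) were lost, and other single libraries of that time ended them as well. Fzd4 was not called untreated without the second control library (0.29, adjusted p = 0.058). At 24 h Wnt7a was not called without the first control library (-0.54, adjusted p = 0.060), nor Fzd1 without the second (0.18, adjusted p = 0.18).

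**Figure D4:**
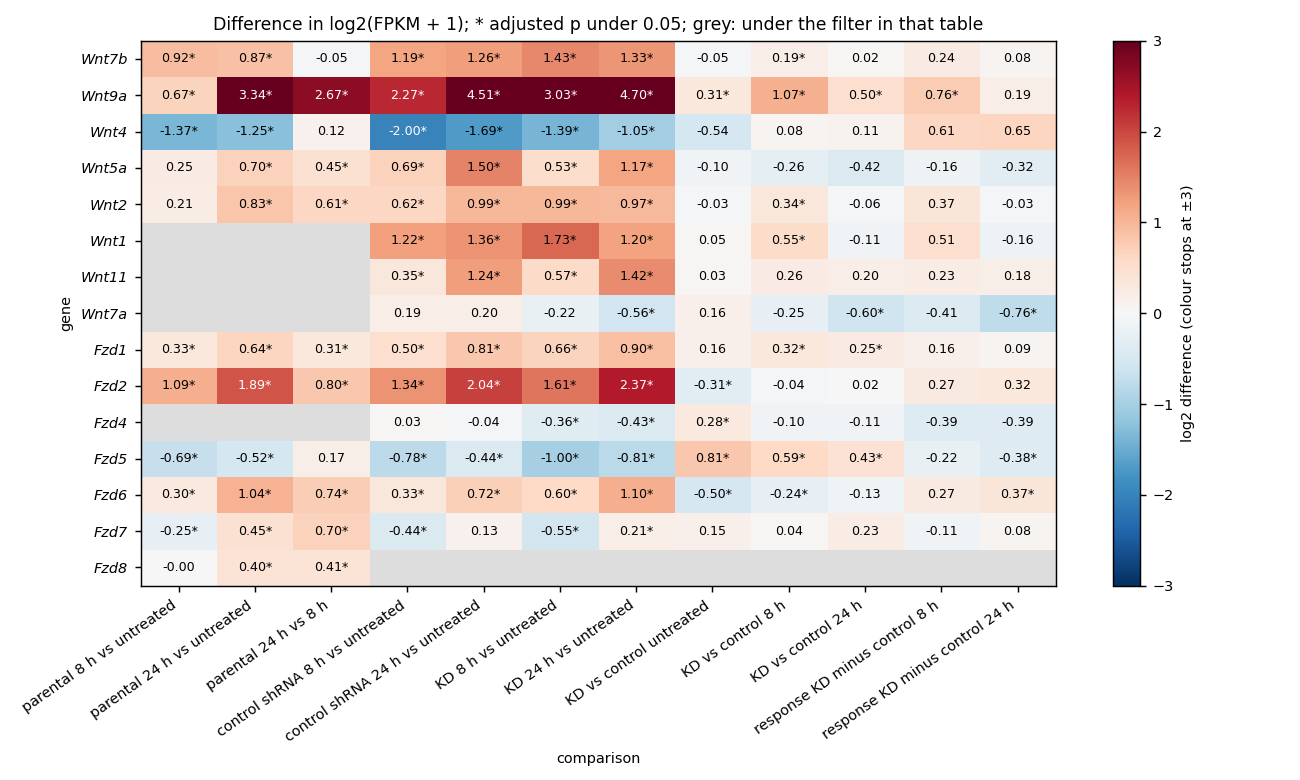
Difference in log2(FPKM + 1) for the 15 members tested in either table (rows) in 12 comparisons (columns), printed and coloured, with an asterisk where the limma adjusted p was under 0.05 and grey where the member was under the filter. Wnt9a and Fzd2 have the largest rises at 24 h of TGF-β against untreated cells, Wnt4 and Fzd5 fall, and the columns of KD against control hold smaller values.

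The response to TGF-β was then compared between KD and control cells as a difference of differences. At 8 h no member was called with a difference under 0, where 1.61% of all genes were. Only Wnt9a of 14 members was called above 0, with a larger rise in KD cells (0.76 ± 0.09, limma adjusted p = 0.0085), against 2.45% of all genes. With 0.1 in place of 1 added before the log that difference was 0.28 (adjusted p = 0.25), and the 8 h to untreated ratio of mean FPKM was 21.5 in control and 21.9 in KD cells. At 24 h, 1 member was called with a difference above 0 (Fzd6, 0.37 ± 0.08, adjusted p = 0.043), against 2.73% of all genes. For 2 it was under 0 (Fzd5, -0.38 ± 0.08, adjusted p = 0.036, and Wnt7a, -0.76 ± 0.17, adjusted p = 0.041), against 1.98%. Fzd5 fell in both kinds of cell, further in KD (-0.81) than in control cells (-0.44). Wnt7a fell in KD cells (-0.56) and was not called in control cells (0.20). Without either untreated KD library none of these 3 was called (adjusted p = 0.091 to 0.17). For Fzd5 and Fzd6 the untreated levels differed between KD and control cells more than the 24 h levels did.

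Of the other genes of the pathway, 47 were listed by role, 45 were found by symbol and 28 were tested in the parental and 27 in the shRNA table. In parental cells 9 were higher and 7 lower at 8 h (22.4% and 32.1% of all genes), and 15 and 7 at 24 h (33.4% and 37.1%). Control cells had 6 and 10 at 8 h (19.4% and 44.9%) and 11 and 11 at 24 h (25.5% and 45.1%). KD cells had 9 and 11 at 8 h (23.0% and 44.8%) and 11 and 12 at 24 h (28.6% and 43.3%). Both secretion genes rose at 24 h in all 3 kinds of cell. Porcn, the enzyme that attaches the lipid to Wnt proteins, went from 7.95 and 7.46 to 23.1 and 24.9 FPKM in parental cells, and Wls, which carries Wnt proteins to the surface, from 77.6 and 80.6 to 171 and 175 FPKM.

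Receptor partners were split. Lrp5 fell from 43.5 and 45.9 to 22.7 and 22.7 FPKM in parental cells over 24 h (log2 difference -0.95), and Lrp6 was at 13.2 and 14.8 and then 12.8 and 12.5 FPKM. Ror1 rose by 0.48 and Ptk7 by 0.93 at 24 h. Among the genes of receptor turnover Lgr6, an R-spondin receptor, rose from 0.917 and 0.915 to 29.9 and 27.1 FPKM and Lgr4, another, fell from 17.3 and 18.2 to 6.42 and 6.67 FPKM. Rnf43, a ligase that removes Frizzled receptors from the surface, fell by 0.56 and its relative Znrf3 rose by 0.38. Lgr6 rose and Lgr4 fell in control and KD cells as well. Rspo3, an R-spondin, was the single tested gene of 14 other extracellular modulators and rose from 1.81 and 1.86 to 5.66 and 5.81 FPKM in parental cells.

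Of 11 intracellular components 5 were higher and 2 lower in parental cells at 24 h, where 33.4% and 37.1% of all genes were. The balance was the other way in control and in KD cells, with 2 of 10 tested higher and 5 lower in each. The shares of all genes there were 25.5% and 45.1% (control) and 28.6% and 43.3% (KD). In parental cells Ctnnb1, which encodes β-catenin, fell from 833 and 860 to 456 and 445 FPKM, and the transducer Dvl1 rose by 0.61. Of 9 targets and feedback genes 5 were tested. Tcf7 rose from 2.14 and 1.71 to 6.61 and 6.55 FPKM and Axin2, a feedback inhibitor, from 0.539 and 0.553 to 1.13 and 1.14 FPKM, whereas Ccnd1 fell from 254 and 257 to 125 and 117 FPKM and Apcdd1 fell by 0.82. Lef1, Nkd1, Nkd2 and Sp5 were under the filter. The response of Axin2 was larger in KD than in control cells at both times (0.46 and 0.50, both called), and KD libraries held 1.57 and 1.84 FPKM at 24 h against 0.661 and 0.770 FPKM in control libraries. Apcdd1 responded with a deeper fall in KD cells (-0.54 and -0.69, both called), and Myc did so at 24 h (-0.54).

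The lamin B1 and ATAC peak lists were then read at the 37 members, all of which had a place on mm9 in the GENCODE annotation. The lists held 4645, 10484 and 7083 lamin B1 peaks and 9782, 10340 and 33811 ATAC peaks at 0, 8 and 24 h, so a larger share of genes with a peak at 8 h (lamin B1) or 24 h (ATAC) goes with a longer list. With 1 library per time point there is no replicate check, and no test was made between times. A lamin B1 peak in the gene or in the 2500 bp before its start was listed for 13, 25 and 21 of 37 members (35.1%, 67.6% and 56.8%), against 19.9%, 38.8% and 29.4% of 21039 placed genes. An ATAC peak within 500 bp of the start was listed for 6, 6 and 13 members (16.2%, 16.2% and 35.1%), against 30.6%, 25% and 47.0% of placed genes. With a score of at least 100 the lamin B1 counts were 6, 14 and 9 (16.2%, 37.8% and 24.3%, against 4.54%, 16.1% and 12.3% of placed genes), and the ATAC counts 3, 1 and 12 (8.11%, 2.70% and 32.4%, against 17.7%, 7.32% and 43.0%).

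Lamin B1 peaks were also listed at members under the filter. Of these 26 in parental cells, 7, 17 and 14 had one at 0, 8 and 24 h (26.9%, 65.4% and 53.8%), where 5.86%, 20.8% and 14.4% of all 10414 genes under the filter did. The 26 are not all silent. The 7 that exceeded 0.2 FPKM in a library (Fzd3, Fzd4, Fzd9, Wnt1, Wnt7a, Wnt10a and Wnt11) all had a lamin B1 peak at 8 h, against 35.7% of 1868 genes at such levels. Of the 19 that never exceeded 0.2 FPKM, 4, 10 and 8 had one (21.1%, 52.6% and 42.1%), against 4.04%, 17.6% and 11.8% of 8546 genes. The start sites of the members are rich in G and C, with a median of 63.3% over the start and 500 bp on each side at the 26 members against 49.8% at all genes under the filter. Among start sites with at least 60% G and C, 14 of 18 members under the filter (77.8%) had a lamin B1 peak at 8 h, against 65.4% of 1565 genes under it, and 12 of 18 (66.7%) at 24 h against 52.4%, so the gap was smaller there. Sfrp5 had lamin B1 peaks at its start at all 3 times (scores 56.2, 155 and 106), Sfrp4 (88.7 and 62.7), Wnt5b and Wnt9b at 8 and 24 h, and none of these 4 had an ATAC peak at the start. At 8 h, 15 members had a lamin B1 peak and no ATAC peak within 500 bp of the start, 5 had both and 1 had ATAC alone (40.5%, 13.5% and 2.70%), against 16.1%, 14.3% and 10.7% of placed genes.

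At Wnt9a (chr11:59120430-59147054 on mm9, plus strand) a lamin B1 peak lay over the start site at all 3 times with MACS scores of 63.7, 152 and 186, and an ATAC peak was there at 24 h (chr11:59119123-59122298, score 204). A smaller ATAC peak (chr11:59121530-59121926, score 54.8) was listed at 8 h inside the gene, within 2500 bp of the start but over 500 bp from it. The printed Wnt9a promoter matched mm9 once, and it overlapped these 4 peaks. Wnt3a, which lies 16.2 kb away on the other strand, was listed at 0 in the parental libraries and had a lamin B1 peak inside the gene at 24 h only (60.2). Wnt1 had lamin B1 peaks at its start at 8 and 24 h (107 and 102) and an ATAC peak at 24 h (149), while its neighbour Wnt10b, 11.7 kb off, had lamin B1 peaks at 0 and 8 h (93.2 and 155) and no ATAC peak. Wnt4 lacked a lamin B1 peak in all 3 lists and had an ATAC peak over the start only at 24 h (177), although its mRNA was highest untreated.

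Wnt7b (chr15:85365869-85412251 on mm9, minus strand) carried 7 lamin B1 peaks at 0 and 8 h and 2 at 24 h, with scores over the start of 184, 275 and 122. Its ATAC peak at the start was listed only at 24 h (103), and an internal one about 7.2 kb into the gene was listed at all times (114, 140 and 655). Fzd2 had an ATAC peak at its start at all times (131, 97.2 and 393) and lamin B1 peaks downstream of the start at 8 and 24 h (157 and 247). Fzd5 had lamin B1 peaks over the start at 0 and 8 h (166 and 304), a weaker one inside the gene at 24 h (92.5), and ATAC peaks at all times (185, 107 and 443). Fzd1 also lacked lamin B1 peaks and had ATAC peaks at all 3 times. Of the 5 Frizzleds whose mRNA was above 4 FPKM in untreated parental cells, all 5 had ATAC peaks at the start at all times. Lamin B1 peaks were listed at 4 of them at 8 and 24 h. Of the 11 tested members, 5, 5 and 8 had an ATAC peak within 500 bp of the start at 0, 8 and 24 h. Among all tested genes the shares were 56.4%, 46.1% and 84.0%. Lamin B1 peaks were listed at 8 and 7 of the 11 at 8 and 24 h, against 56.5% and 44.1% of all tested genes. Members with a lamin B1 peak included some that rose, some that fell and some that were silent.

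**Figure D5:**
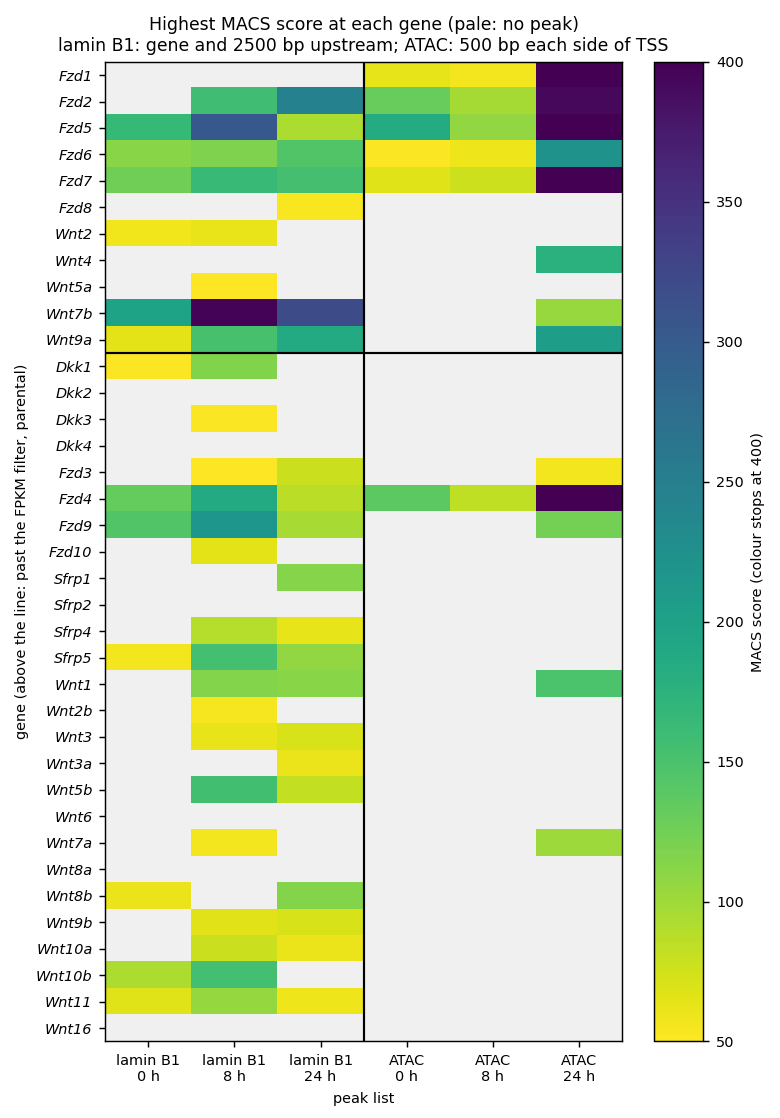
Highest MACS score of a peak at each of the 37 members (rows; the 11 tested in parental cells above the line) in the 3 lamin B1 and 3 ATAC lists (columns); pale cells have no peak. ATAC peaks are listed at all 3 times at Fzd1, Fzd2, Fzd4, Fzd5, Fzd6 and Fzd7, and at none at Fzd8. Lamin B1 peaks are also listed at 17 of 26 members under the filter at 8 h, 10 of which never exceeded 0.2 FPKM.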

How the data were processed

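Per the labels and the study's methods, RNA was sequenced in 2 biological replicates per group. The authors deposited one FPKM value per gene and library in 2 tables with no header line; the submitters' processing notes name Bowtie, TopHat and Cufflinks and the build mm9, without versions or roles. Columns were placed by the names given in the labels. The parental columns carry no replicate number. The authors called lamin B1 and ATAC peaks with MACS and deposited a score per peak, 1 list per library; reads and depth per peak are not used here. Hi-C libraries were not analysed here.

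FPKM was analysed as log2 after adding 1. The 11309 and 11450 genes that reached 1 FPKM in 2 or more libraries of their table were fitted in limma 3.58.1 (R 4.3.3), with trend, all libraries of a table together and Benjamini-Hochberg adjustment over all of them; a fold understates low genes on this scale. A difference of differences compared responses. The test was tried on simulated data first. FPKM holds no counts; from the spacing of low values the depths were within 92.7 to 116% (parental) and 79.3 to 113% (shRNA) of the first library of each table. Replicate libraries correlated at 0.983 to 0.994 across genes. Peaks were matched to genes of GENCODE on mm9 in Python 3.11.15 with a 1 bp overlap, and coordinates count from 1. Promoters came from RefSeq on GRCm38.p6, a different build; each was also found on mm9 by exact match.

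The members, the pathway and marker lists and the tests were chosen with earlier results of these data known. Members are named by their symbol rule, pathway genes by role and size of change, at most 4 per role. As alternatives 0.1 was added in place of 1, the filter was dropped, and values were quantile normalized; others were each library left out, a replicate block, a peak score of at least 100 and 2500 bp around the start.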

Additional observations from a re-analysis of the deposited data

Results flagged for a closer look

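In 4 members a difference of response between KD and control cells passed the test of the difference itself, on the log2(FPKM + 1) scale and by limma. Wnt9a rose more in KD cells at 8 h (0.76, adjusted p = 0.0085), and Fzd6 rose more at 24 h (0.37, adjusted p = 0.043). Fzd5 fell further in KD cells at 24 h (-0.38, adjusted p = 0.036). The Wnt7a difference at 24 h was -0.76 (adjusted p = 0.041), with a fall in KD cells and no call in control cells. Wnt9a was higher in KD than in control cells in both libraries at each time, Fzd5 likewise, and Fzd6 was lower in both untreated KD libraries (7.81 and 8.06 FPKM) than in both control ones (12.1 and 11.2 FPKM). For Wnt7a the 2 untreated control libraries were at 2.24 and 3.24 FPKM. The Wnt9a call was lost with 0.1 in place of 1 added before the log (0.28, adjusted p = 0.25), and the 24 h calls were lost with a replicate block or without any 1 of 8 libraries. The cause of these differences was not tested.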

How the results depend on the processing

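No called log2 difference of a member changed sign under any alternative run, and values not called were not compared. Of 97 called values, 95 were still called with the 0.1 constant, 92 with no filter and 94 with quantile normalization. Without the filter 17 members, not 11, were called in parental cells at 24 h, because more genes were tested. The response calls were the least firm. At 8 h the count of 1 became 0 with the 0.1 constant, 2 without the filter and 2 with quantile normalization, and at 24 h the count of 3 became 0 with a replicate block. The main fit did not treat same-numbered replicates as pairs. Over 15 pairs of groups the correlation of same-numbered deviations ran from -0.14 to 0.37, over 0.1 in 2. Those 2 were control with KD cells at 24 h (0.37) and untreated with 24 h KD cells (0.18). Whether the numbers pair the samples is not settled by these values. The block kept 67 of 70 single calls, and the 3 it lost were the response calls at 24 h. Parental columns carry no numbers, so no block was fitted there.

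With each library left out in turn, the counts were 7 to 10 (main 8), 9 to 11 (11) and 6 to 9 (8) for parental 8 h, 24 h and 24 against 8 h, 10 to 13 (12) and 11 to 12 (11) for control, 11 to 14 (13) and 12 to 14 (14) for KD, 2 to 6 (5), 3 to 9 (7) and 3 to 7 (4) for KD against control at 0, 8 and 24 h, and 1 to 6 (1) and 0 to 6 (3) for the responses. A group with 1 library left was assumed to vary like the others. Of 984 single calls 926 were kept. The lowest counts came without untreated KD replicate 2 (0 h), without 8 h control replicate 1 (8 h) and, for the 24 h responses, without any 1 of 8 libraries; the highest response counts came without untreated control replicate 2 (8 h) and 24 h KD replicate 1 (24 h). The cause was not tested.

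Quantile normalization moved the balance of all genes. Control cells had 3082 higher and 3624 lower at 8 h (2223 and 5137 without it) and 3900 and 3901 at 24 h (2924 and 5169), and KD cells 3432 and 4036 at 8 h (2629 and 5132) and 4126 and 4103 at 24 h (3277 and 4959). The median of all genes in control cells moved from -0.14 to -0.02 at 8 h and from -0.13 to -0.0035 at 24 h. Peaks with a score of at least 100 left 6, 14 and 9 members with lamin B1 peaks, and 3, 1 and 12 with ATAC peaks (13, 25 and 21, and 6, 6 and 13, at any score). FPKM without counts limits what can be said of members under 1 FPKM.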
